A study of Macaca mulatta with 2 samples.

Results

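The genes described here are those of the inhibin, activin, follistatin and anti-Müllerian hormone (AMH) system in cultured macaque Sertoli cells, the somatic cells of the testis tubule that support germ cells. They were chosen by name, as every non-control probe annotated to INHA, INHBA, INHBB, AMH, AMHR2, FST, FSTL3, ACVR1, ACVR2A or ACVR2B. The rule found 11 probes for the 10 genes among 41000 probes of the array, with 2 probes for ACVR2B and 1 for each other gene. All 11 probes were well above background in both colours on both arrays, so all 11 were among the 25768 probes tested.

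Total RNA came from primary Sertoli cell cultures of Macaca mulatta, the rhesus monkey. The 2 infant cultures were from males less than 3 months of age. The 2 pubertal cultures were from males of 18 to 22 months given gonadotropin-releasing hormone (GnRH) through a catheter for 4 to 5 weeks, in pulses of 2 min at 0.15 µg/min that came once in every 3 h, so that puberty was induced early rather than reached with age. Every culture, infant and pubertal alike, had been kept for 24 h with FSH (follicle-stimulating hormone) at 5 ng/ml and testosterone at 100 nM. Each of 2 two-colour arrays carried 1 pubertal and 1 infant culture. Pubertal RNA was in the red dye Cy5 on array 1 and in the green dye Cy3 on array 2. The labels call the cultures biological replicates, and a p-value here measures the spread between these 2 pairs only. The probes are human sequences, and whether they match the macaque transcripts base for base was not analysed here.

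Inhibins and activins are dimeric proteins that share their beta subunits. The alpha subunit INHA joined to a beta subunit makes an inhibin, which lowers FSH release from the pituitary, and beta subunits joined to each other make an activin. Activins bind the type II receptors ACVR2A and ACVR2B, which recruit a type I receptor that phosphorylates SMAD proteins, and follistatin (FST) and FSTL3 trap activins outside the cell. AMH is secreted by immature Sertoli cells, removes the Müllerian ducts in the male fetus, is known to decline as the testis matures at puberty, and signals through its own type II receptor AMHR2 together with type I receptors such as ACVR1.

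The probes on which the comparisons below turn were as follows, 5′ to 3′ as in the scanner files, with the stop codon in capitals where the probe covers the end of the coding sequence. They are shown because the FST and INHBA ratios were the furthest apart between arrays, AMHR2 had the lowest p, AMH is the best known marker of the immature Sertoli cell, and the ACVR2B probes read different stretches of 1 gene.
INHBA: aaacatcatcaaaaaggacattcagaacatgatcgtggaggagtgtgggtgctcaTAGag
FST: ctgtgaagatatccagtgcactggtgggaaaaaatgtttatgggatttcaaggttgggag
AMH: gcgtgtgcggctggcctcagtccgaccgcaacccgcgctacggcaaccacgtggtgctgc
AMHR2: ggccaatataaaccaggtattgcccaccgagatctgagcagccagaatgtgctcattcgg
ACVR2B, upstream probe: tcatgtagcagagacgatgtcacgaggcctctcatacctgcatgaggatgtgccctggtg
ACVR2B, downstream probe: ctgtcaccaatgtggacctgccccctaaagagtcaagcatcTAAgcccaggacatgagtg

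On the human build hg17, per the files, the INHBA probe lies at chr7:41502486-41502545 on the minus strand and the FST probe at chr5:52816594-52816653. The AMH probe lies at chr19:2202742-2202801, and 71.7% of its 60 bases are G or C, the highest share of the 11 probes. The AMHR2 probe is listed at chr12:52109061-52109562, a span of 502 bases for a probe of 60, so that it joins separate exons. The ACVR2B probes start 3558 bases apart on chromosome 3, at chr3:38496226-38496285 and chr3:38499784-38499843. An hg17 gene annotation was not used here.

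The design asks how expression in infant and pubertal Sertoli cells differs when both are under testosterone and FSH. For these genes the arrays gave no difference that passed the test. Of the 11 probes 0 passed limma's test at an adjusted p under 0.05, as did 0% of the 25768 probes tested. AMHR2 had the largest mean difference of constant sign, at 2.02-fold lower in pubertal cells, and FST the largest mean difference of all, at 2.38-fold higher, but with opposite signs on the arrays. At an unadjusted p under 0.05 there was 1 of 11 probes, AMHR2, against 4.05% of all tested probes. With 2 arrays an exact test over samples cannot go below a two-sided p of 0.5.

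The sizes of the ratios on single arrays were large in several members. At least a 2-fold difference on 1 or both arrays was seen in 4 of 11 probes (INHA, INHBA, AMHR2 and FST), against 9.51% of all tested probes. INHA only just reached 2-fold, at a log2 ratio of 1.00 on array 1 with a saturated pubertal spot. With the scanner software's signals it was at 0.89 there, under 2-fold. The median size of the log2 ratio over the 11 probes was 0.60 on array 1 and 0.34 on array 2, against 0.27 and 0.24 over all tested probes. The arrays did not share these differences. A 2-fold difference in the same direction on both arrays was seen in 0 of 11 probes (0.602% of all tested probes). Ratios at least 4-fold apart between the arrays were seen in 2 of 11, FST and INHBA (1.96%). The sign of the ratio was the same on both arrays for 5 of 11 probes (45.3%) and opposite for 6 of 11 (54.7%). Of the 5, AMH and FSTL3 were higher on both (23.4%) and AMHR2, ACVR1 and the upstream ACVR2B probe were lower on both (21.9%). These counts hold 2 signs that were not settled. AMH was at 0.001 on array 2, and INHBB, counted as opposite, was at -0.08 on array 1 with a saturated pubertal spot. A share near that of all probes carries no result about these genes.

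**Figure D1:**
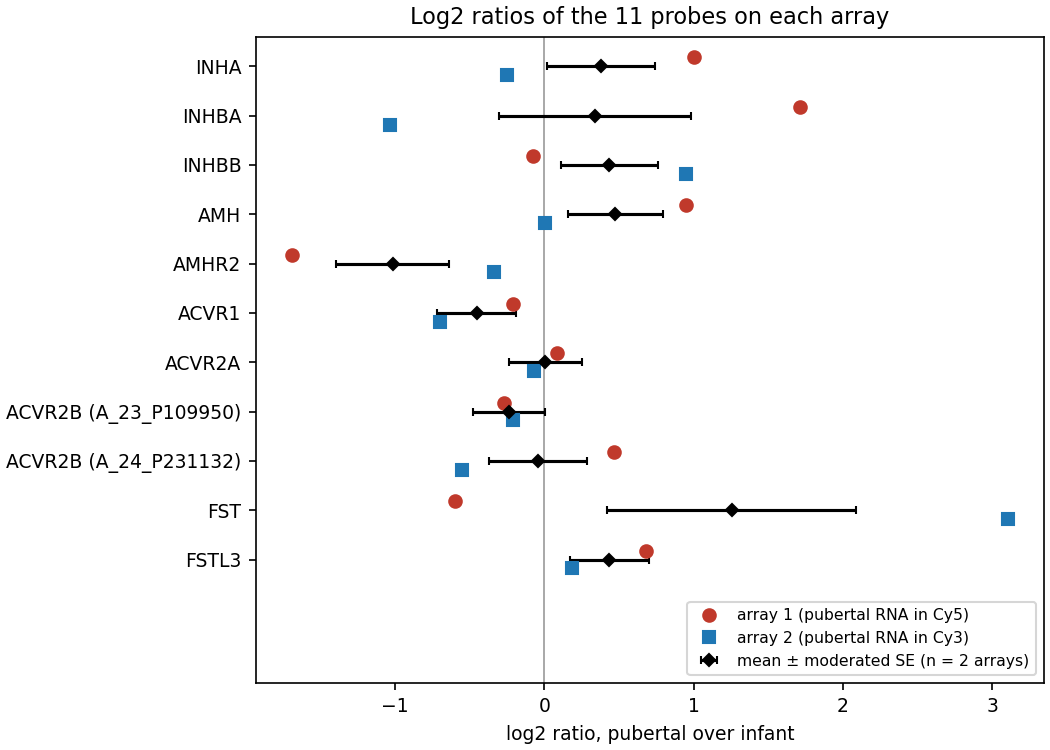
Log2 ratio of pubertal over infant (x axis) for each of the 11 probes (rows), with array 1 as red circles, array 2 as blue squares, and the mean ± moderated standard error (SE, n = 2 arrays) as black diamonds with bars. AMHR2 lies on the left of 0 on both arrays, while FST, at -0.60 and 3.10, and INHBA, at 1.71 and -1.03, lie on opposite sides.

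Among the ligand subunits, INHA is the part found in inhibins alone. Its normalized log2 intensity was 14.94 and 14.19 in the pubertal cultures of arrays 1 and 2 and 13.93 and 14.44 in the infant cultures. The groups overlapped. The pubertal-over-infant log2 ratios were 1.00 and -0.25 on arrays 1 and 2. Their mean was 0.38 ± 0.36, where the error here and below is the moderated SE over n = 2 arrays, with a 95% interval of -0.54 to 1.29. The pubertal spot on array 1 was saturated, at 64791 intensity units above local background, so the ratio of array 1 is a lower bound.

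INHBB, the beta subunit of inhibin B, the main circulating inhibin of the male, was bright in every culture. Its log2 intensity was 15.01 and 15.33 in the pubertal cultures and 15.08 and 14.39 in the infant cultures. The infant culture of array 2 was the lowest of the 4 and the groups overlapped. The log2 ratios were -0.08 and 0.95, a mean of 0.44 ± 0.33 with a 95% interval of -0.39 to 1.26. The first of these was again limited by a saturated pubertal spot, at 65125 units above background, and is a lower bound. With the scanner software's own signals that first ratio was 0.02, and with median centring in place of loess it was 1.23.

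INHBA, the beta subunit of activin A, had large and opposite ratios. Its log2 intensity was 13.11 in the pubertal and 11.40 in the infant culture of array 1, and 12.08 in the pubertal and 13.12 in the infant culture of array 2. The log2 ratio was thus 1.71 on array 1 and -1.03 on array 2, which is 3.28-fold higher and 2.05-fold lower. The mean of 0.34 ± 0.64 (95% interval -1.28 to 1.96) stands for neither array. INHBA was the 1 member at least 2-fold apart on both arrays in opposite directions, against 0.683% of all tested probes. The levels followed the dye labels: both cultures read in Cy5 were higher than both read in Cy3, and the Cy5 levels of the pubertal culture of array 1 and the infant culture of array 2 differed by -0.01. INHA and ACVR2A were split by dye in the same way. FST was split in reverse. INHBB was also split in reverse as read, but its pubertal Cy5 spot was saturated. That level is a lower bound, so a split of INHBB by dye was not settled. Dye and the differences between cultures of the same stage cannot be told apart in such a pattern, nor for any probe with opposite signs on the arrays. The authors' deposited table lists this probe at 1.67 and -1.05.

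AMH itself was not lower in the pubertal cultures of either pair by this processing. Its log2 intensity was 12.73 in the pubertal and 11.78 in the infant culture of array 1, and 10.67 in both cultures of array 2. Both cultures of array 1 were thus above both cultures of array 2, by 1.11 between the infant cultures and by 2.06 between the pubertal cultures, a gap wider than either difference between stages. The log2 ratios were 0.95 and 0.001, a mean of 0.48 ± 0.32 and a 95% interval of -0.32 to 1.27. The sign on array 2 was not settled, at -0.13 with the scanner software's signals, -0.01 without an offset in the background correction and -0.61 with median centring.

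**Figure D2:**
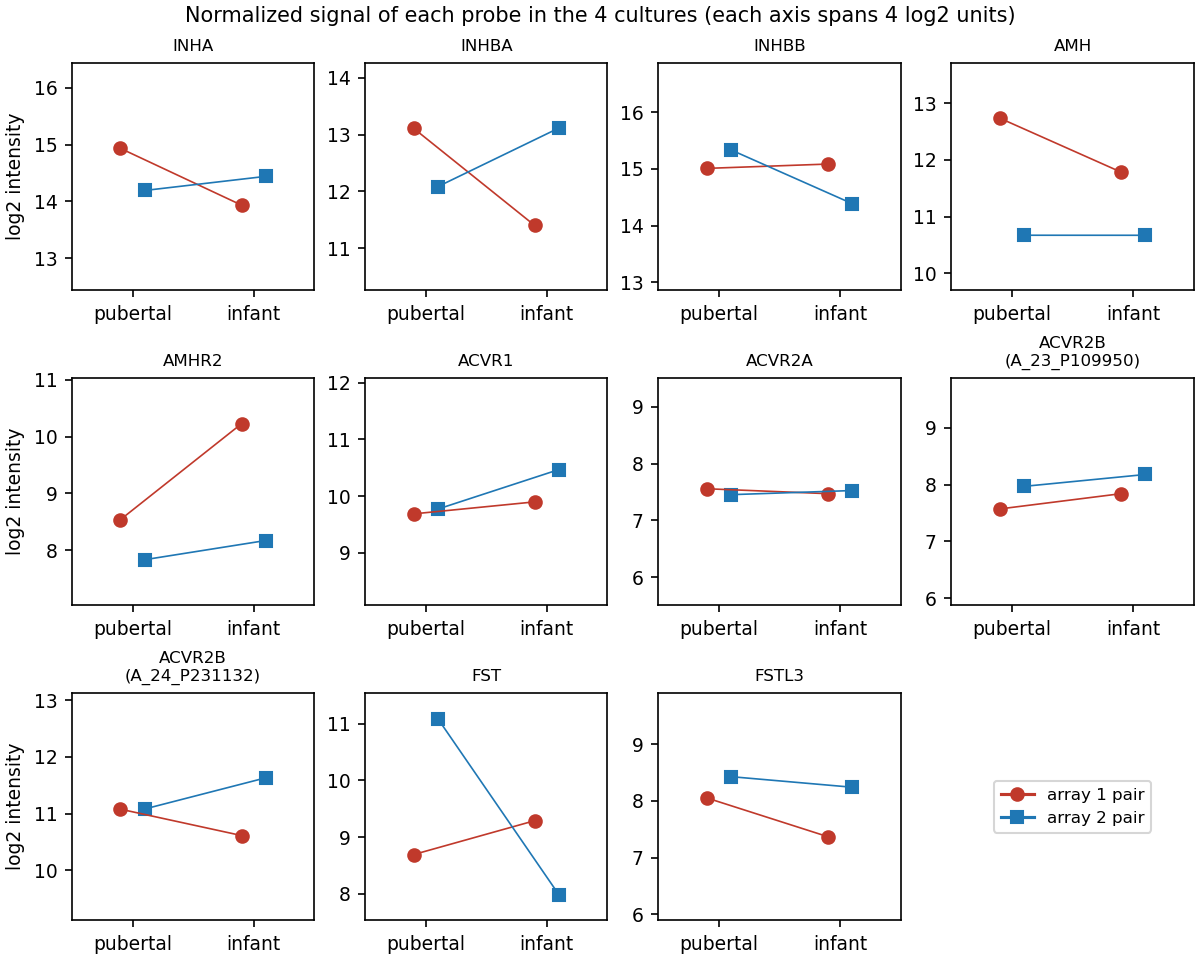
Normalized log2 intensity (y axis) of each of the 11 probes in the pubertal and infant cultures (x axis), with the pair of array 1 as red circles and the pair of array 2 as blue squares, each pair joined by a line. Every panel spans 4 log2 units around its own centre, and levels of different panels cannot be compared. AMH sits higher in both cultures of array 1, the pubertal culture of array 2 stands apart in FST at 11.09, and the infant culture of array 1 stands apart in AMHR2 at 10.23.

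Among the receptors, AMHR2, the type II receptor for AMH, had the lowest p of the 11 probes. Its log2 intensity was 8.54 and 7.83 in the pubertal cultures and 10.23 and 8.17 in the infant cultures. The infant culture of array 1 stood apart, and the pubertal culture of array 1 was above the infant culture of array 2, so the groups overlapped. The log2 ratios were -1.69 and -0.34, or 3.23-fold and 1.26-fold lower, with a mean of -1.01 ± 0.38 and a 95% interval of -1.97 to -0.06. It did not pass limma's test over all probes (unadjusted p = 0.0411, Benjamini-Hochberg adjusted p = 0.99997), and its adjusted p lay between 0.728 and 1 under the other settings. The ratio was below 0 on both arrays under each alternative processing run, including the scanner software's signals (-1.74 and -0.66) and median centring (-0.94 and -0.69). The authors' deposited table lists AMHR2 at -1.77 and -0.67. In bulk RNA, fewer cells that express a gene and less of its RNA per cell cannot be told apart.

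By distance over the log2 ratios of the 2 arrays, the tested genes nearest to AMHR2 were TMEM45A, a membrane protein gene (-1.68 and -0.37, distance 0.038), ANXA6, an annexin that binds membranes (-1.74 and -0.25, distance 0.10), and PHLDA1 (-1.62 and -0.26, distance 0.11). Likeness over 2 arrays is a weak measure, and many probes lie close by.

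ACVR1, a type I receptor that serves bone morphogenetic proteins and AMH, had log2 intensities of 9.69 and 9.77 in the pubertal and 9.90 and 10.47 in the infant cultures. The pubertal levels were both below the infant levels, which held for 1 of 11 probes and for 14.1% of all tested probes, while no member had both pubertal levels above both infant levels (15.7%). The log2 ratios were -0.21 and -0.70, a mean of -0.45 ± 0.26 with a 95% interval of -1.12 to 0.21, and with median centring the sign on array 1 turned, at 0.60.

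ACVR2A, an activin type II receptor, had log2 intensities of 7.56 and 7.45 in the pubertal and 7.47 and 7.52 in the infant cultures, and ratios of 0.09 and -0.07. Its mean of 0.01 ± 0.24 had a 95% interval of -0.61 to 0.62, which holds differences of that size in either direction. The ACVR2A spots were dim, from 68.9 to 237 units above local background, where the offset of 50 shrinks ratios, and with the scanner software's signals the ratios were 0.30 and -0.18.

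The ACVR2B probes gave different patterns. The downstream probe, over the stop codon, had log2 intensities of 11.08 in both pubertal cultures and of 10.61 and 11.63 in the infant cultures, with ratios of 0.46 and -0.55 and a mean of -0.04 ± 0.33. The upstream probe was dim, with 7.57 and 7.97 in the pubertal and 7.84 and 8.18 in the infant cultures, and ratios of -0.27 and -0.21 and a mean of -0.24 ± 0.24. On array 1 the probes therefore had opposite signs with loess, and with median centring both were above 0 there, at 1.42 and 0.10. For neither probe did the 95% interval exclude 0 (-0.86 to 0.78 downstream, -0.85 to 0.37 upstream).

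Among the binding proteins, FST had the widest gap of the 11 probes. Its log2 intensity was 8.69 in the pubertal and 9.29 in the infant culture of array 1, and 11.09 in the pubertal and 7.98 in the infant culture of array 2. The pubertal culture of array 2 was the high one of the 4, at 1489 units above local background against 303 for its infant partner. By normalized level both cultures read in Cy3 were above both read in Cy5, the reverse of INHBA. Dye and the differences between cultures of the same stage cannot be told apart here either. The log2 ratios were -0.60 and 3.10, or 1.51-fold lower and 8.60-fold higher. The ratio of array 1 minus that of array 2 was -3.70. The mean of 1.25 ± 0.84 had a 95% interval of -0.86 to 3.36. The authors' deposited table lists FST at -0.88 and 3.54. On both arrays the FST ratio was opposite in sign to that of INHBA. INHBA was higher and FST lower in pubertal cells on array 1, and the other way round on array 2. With median centring, though, FST on array 1 was at 0.08. Both probes were split by dye, in opposite ways, and a link between FST and INHBA was not tested.

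FSTL3, the follistatin-like binder of activins, had log2 intensities of 8.05 and 8.43 in the pubertal and 7.37 and 8.24 in the infant cultures. The infant culture of array 1 was the low one, and the groups overlapped. The ratios were 0.68 and 0.19, a mean of 0.43 ± 0.26 with a 95% interval of -0.229 to 1.099, and with median centring the second turned to -0.22. The infant spot of array 1 was 58.2 units above background, the dimmest of all members.

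**Figure D3:**
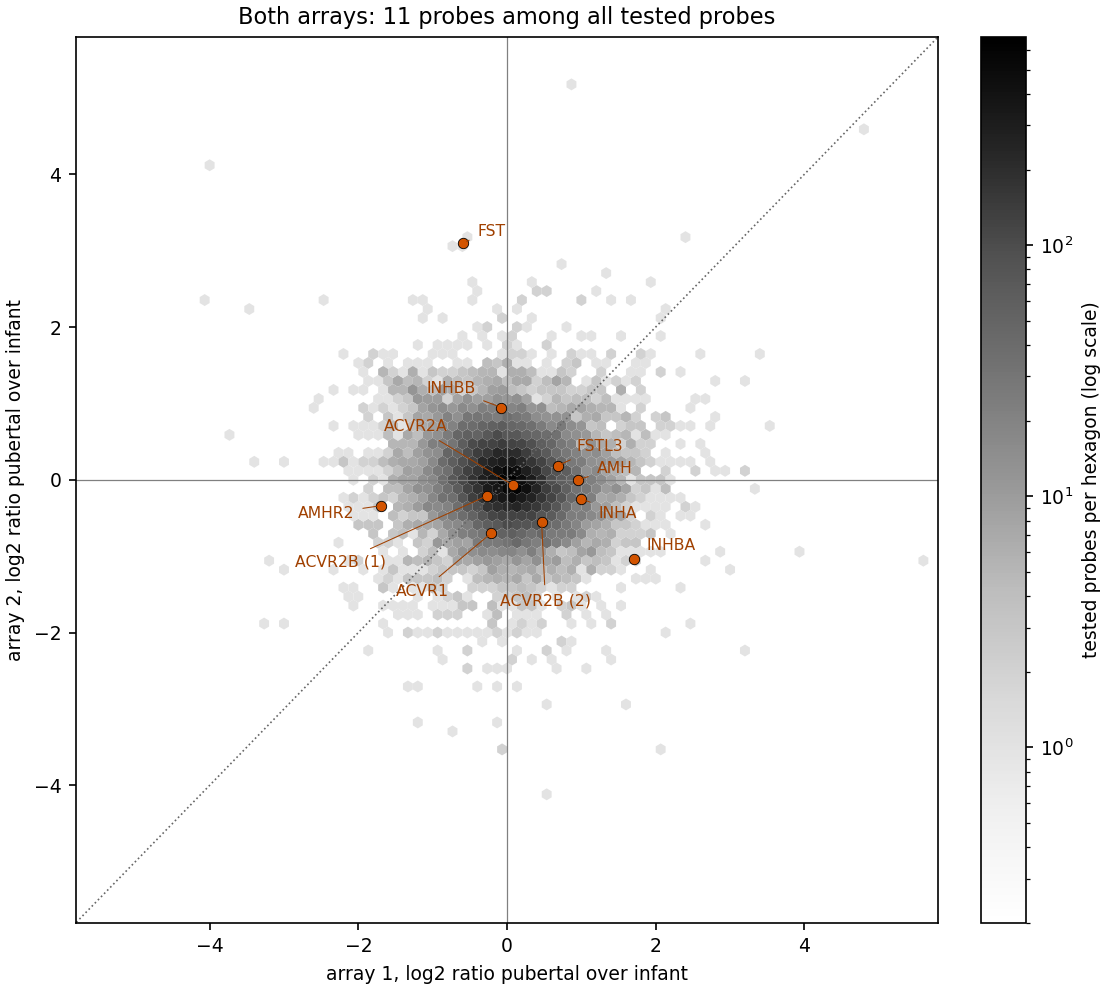
Log2 ratio of pubertal over infant on array 1 (x axis) against array 2 (y axis) for the 25768 tested probes (grey hexagons, darker for more probes on a log scale) and the 11 probes of the inhibin, activin, follistatin and AMH genes (orange points; ACVR2B 1 is the upstream and 2 the downstream probe). The dotted line marks equal ratios. FST and INHBA lie far from it on opposite sides, and AMHR2 lies at the left, near the horizontal axis.

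Because each culture was read in 1 dye, the stages can also be set against each other within a dye, across the arrays. Within Cy5 the pubertal culture of array 1 is compared with the infant culture of array 2, and within Cy3 the pubertal culture of array 2 with the infant culture of array 1, which brings in any difference between arrays. This view was chosen after the data were seen and has no test. In these terms 4 of 11 probes had the same sign in both dyes, against 48.7% of all tested probes. Of these, 3 were higher in both (25.8%) and 1 lower (22.8%). INHA was higher in pubertal cultures by at least 0.49 in Cy5 and by 0.26 in Cy3, INHBB by at least 0.62 and by 0.25, where the Cy5 values rest on the saturated pubertal spots of array 1, and FST by 0.71 and 1.80 on the log2 scale, while ACVR1 was at -0.78 and -0.13. AMHR2, of constant sign within arrays, was at 0.37 in Cy5 and -2.40 in Cy3, and AMH at 2.06 and -1.11. FSTL3, at -0.19 and 1.06, and the upstream ACVR2B probe, at -0.61 and 0.13, were also of constant sign within arrays. The direction for AMHR2, AMH, FSTL3 and the upstream ACVR2B probe thus depended on which cultures were set against each other. So did that for INHA and FST, higher in both dyes but with opposite signs within arrays. The signs of INHBB within arrays were also opposite, with array 1 limited by the saturated spot. Of the remaining probes, INHBA was at -0.01 and 0.68, ACVR2A at 0.03 and -0.02, and the downstream ACVR2B probe at -0.55 and 0.47.

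The label of the cultures was checked against markers. Over all tested probes 23.4% were higher on both arrays, 21.9% lower on both and 54.7% of opposite signs. Marker counts near those shares carry no result. Of 12 Sertoli cell markers 11 were tested, and SHBG was the one not tested, being too dim. In pubertal cells 5 of the 11 were higher in both pairs, 2 were lower in both and 4 had opposite signs, with a summed normalized intensity of 97361 and 145452 in the pubertal and 141590 and 90130 in the infant cultures, limited by saturated spots in 2 genes (pubertal) and 1 gene (infant). The sums of both cultures read in Cy3 (145452 and 141590) were above those of both read in Cy5 (97361 and 90130). Dye and the differences between cultures of the same stage cannot be told apart in this sum. FSHR, the FSH receptor, was well above background in the pubertal cultures on 1 of 2 arrays. Of 10 germ cell markers 7 were higher and 0 lower in the pubertal culture of each pair, with a summed normalized intensity of 2326 to 2760 in the pubertal and 1305 to 1434 in the infant cultures. Of 11 markers of fibroblasts and interstitial stroma 10 were lower on both arrays and 0 higher, at 32374 to 46409 in the pubertal and 72316 to 80371 in the infant cultures. Of 6 peritubular myoid markers 2 were higher and 2 lower, and their summed intensity was 14379 and 9980 in the pubertal and infant cultures of array 1 but 35537 and 48429 in those of array 2. Of 7 Leydig cell markers 6 were tested (LHCGR was not well above background), with 1 higher and 2 lower, and a summed intensity of 92556 to 102308 in the pubertal and 66647 to 99649 in the infant cultures. Saturation limits the pubertal level here, since 3 of the 6, CYP11A1, HSD3B2 and STAR, had a saturated pubertal spot on 1 array. CYP17A1, at a mean of -1.79, and DLK1, at -1.65, were the 2 lower on both. CYP11A1, at a mean of 0.47, was the 1 higher on both. HSD3B2, at a mean of 1.01, INSL3, at 0.58, and STAR, at -0.03, had opposite signs on the arrays. Of 6 macrophage markers 2 were higher and 1 lower, at 979 to 1419 in the pubertal and 774 to 935 in the infant cultures. Of 5 endothelial markers 2 were tested (CDH5, KDR and TEK were not), with 1 higher and 0 lower, at 292 to 331 and 211 to 217. The part of these cells in the ratios of the inhibin, activin and AMH genes was not tested.

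The other genes of the pathway, on lists chosen with earlier results of these data known, were read by the brightest probe of each gene. On both arrays 13 of 50 tested genes were higher in pubertal cells and 13 lower, and 24 had opposite signs, shares near the 23.4%, 21.9% and 54.7% of all tested probes, so that these counts and those of the single lists carry no result. None passed limma's test adjusted over all probes, and 4 of 50 had an unadjusted p under 0.05 (4.05% of all probes). The median log2 ratio of the 50 was 0.06 on array 1 and -0.10 on array 2, against 0.02 and -0.01 over all tested probes.

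Of 13 tested ligands and ligand-binding proteins 1 was higher and 3 lower on both arrays. TGFBR3, or betaglycan, the co-receptor that gives inhibin its hold on activin receptors, was at -1.16 and -0.12, a mean of -0.64 ± 0.33. FSTL4, a follistatin-like protein, was at 0.24 and -1.11 (well above background in the pubertal channel on 1 of 2 arrays), and the proprotein convertase PCSK6 at -0.85 and 0.43 by its brightest probe, a mean of -0.21, and at -0.88 and 0.21 by the probe with the smallest p. MSTN, BMP15, FSTL5 and IGSF1 were not tested.

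Of 8 tested further receptors 3 were higher and 3 lower on both arrays. TGFBR2, the type II receptor for TGF-beta, was at -0.91 and -0.62, a mean of -0.76 ± 0.25 with an unadjusted p of 0.0253 and a limma adjusted p of 0.99997. BMPR2, a type II receptor for bone morphogenetic proteins, was at -0.42 and -0.38 with a further probe at a mean of -0.38. BMPR1A, a type I receptor used by AMH, was at 0.32 and 0.23 by its brightest probe, a mean of 0.27, and at 0.19 and 0.86 by the probe with the smallest p.

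Of 17 SMADs and genes that control them 5 were higher and 4 lower on both arrays. ZFYVE9, an anchor protein that presents SMADs to receptors, was at -0.43 and -1.08, with further probes at means of -0.66 and -0.21. SMAD2, which carries the activin signal, was at 0.45 and 0.47, and its further probe had a mean of 0.48. ID1, a gene known to be induced by bone morphogenetic proteins, was at 0.98 and 0.28.

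Of 12 regulators known to act on the AMH and inhibin genes 4 had both ratios above 0 and 3 had both below. NR0B1, an orphan receptor that represses NR5A1 activity, was at -2.01 and -1.55, a mean of -1.78 ± 0.26 and an adjusted p of 0.838 by limma. DMRT1, a transcription factor of the male gonad that is also on the Sertoli cell list, was at 1.24 and 0.50, and ZFPM2, a cofactor of GATA4, at -1.35 and -0.31 with a further probe at a mean of -0.23.

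**Figure D4:**
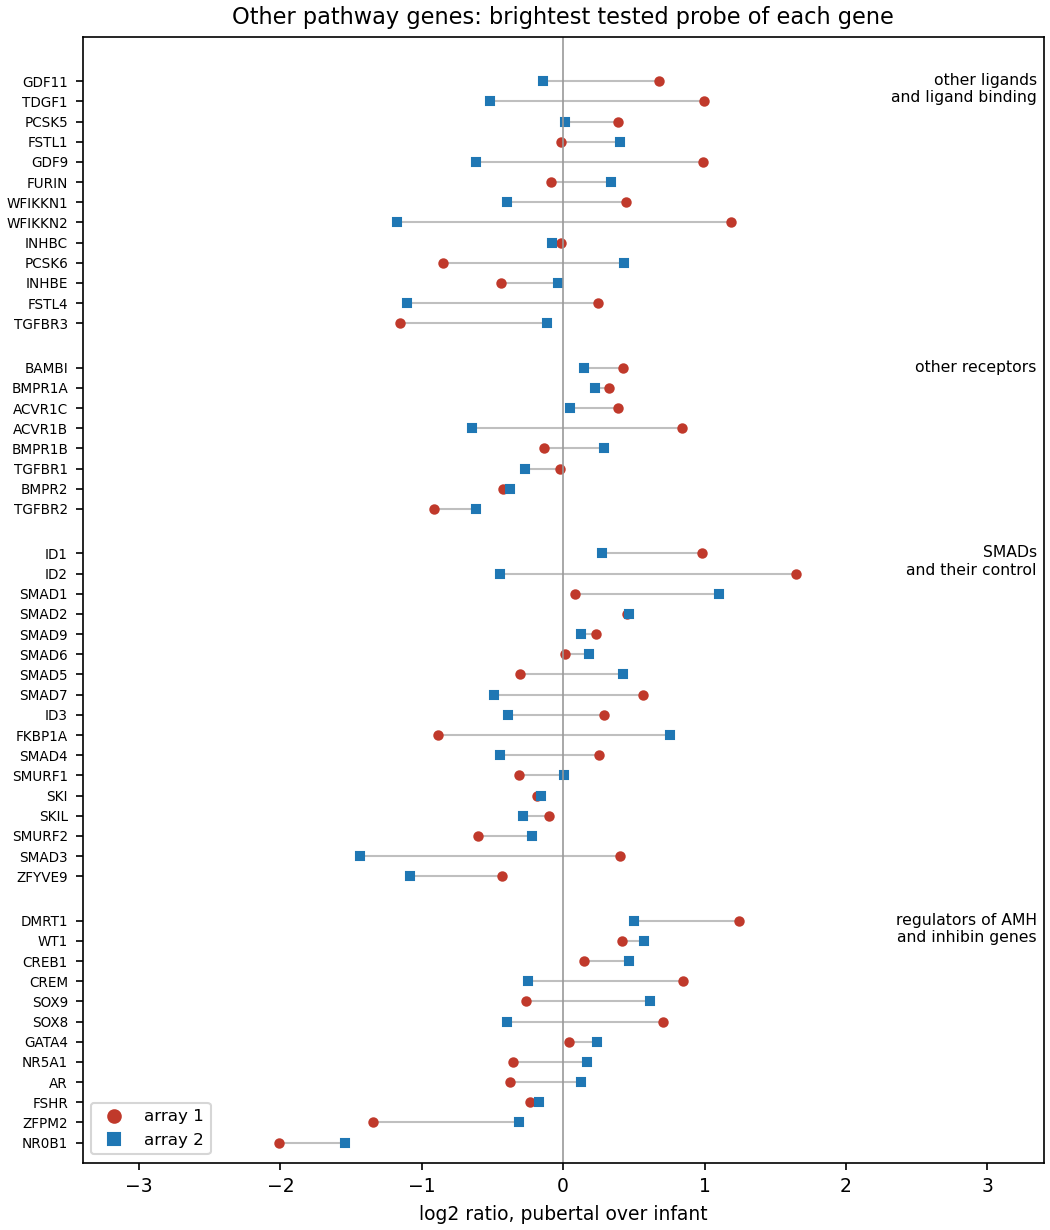
Log2 ratio of pubertal over infant (x axis) on array 1 (red circles) and array 2 (blue squares) for the brightest tested probe of each of 50 other pathway genes and regulators (rows), grouped by list and ordered by mean; a grey line joins the arrays. NR0B1 lies at -2.01 and -1.55, and 24 of the 50 genes have their points on opposite sides of 0.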

How the data were processed

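The scanner software was Agilent Feature Extraction, version 9.5.1.1 in the submitters' processing notes, and its deposited output covers 2 two-colour arrays of human 60-base probes. Per the file headers they hold mean spot intensity and median local background intensity for each dye, processed intensity signals, a log10 ratio of Cy5 over Cy3, and flags for signals well above background, saturation and outliers. A separate table deposited by the authors has log2 ratios of 4848 probes. It lists 3 of the 11 probes here. Its normalization is not given in the sources used here. Against the scanner ratios it had slopes of 1.006 and 1.003 in the pubertal-over-infant direction, with column medians of -0.37 and 0.12. Its median differences from the scanner ratios were -0.016 on array 1 and -0.0004 on array 2. The values it lists for INHBA, AMHR2 and FST lay close to the scanner ratios, so they are no separate check on these.

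Mean intensities were corrected by normexp (offset 50) and normalized by loess within each array in limma 3.58.1 under R 4.3.3, with control spots at weight 0 and outlier spots left out. The offset makes ratios of dim probes smaller. Each ratio was put in the pubertal-over-infant direction from the dyes given in the labels. Probes well above background in 1 stage on both arrays were tested with lmFit and eBayes (two-sided, Benjamini-Hochberg), with 1 residual and 4.33 prior degrees of freedom. Each probe was kept single. Intensities for single cultures were made comparable between arrays by Aquantile, which keeps the ratios. On simulated data with 25768 probes, this fit called 71% of 100 probes changed by 2 on the log2 scale and 100% of 100 changed by 4. The simulated noise was independent and drawn from the fitted spread, which real probes need not follow. Among the real probes CST9L, a Sertoli cell marker at 4.85 and 4.58, did not pass (adjusted p = 0.106 by limma). The simulated shares are thus no measure of power for the genes here.

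Of the 43376 spots of each array 60.9% to 74.8% were well above background per dye. The arrays' number limits the precision. Genes and lists were chosen with earlier results of these data known. Named beside the 10 genes are the 3 genes of each pathway list with the smallest p, and the 3 genes nearest to the probe with the lowest p.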

Additional observations from a re-analysis of the deposited data

How the results depend on the processing

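The alternatives were the scanner software's signals, offset 0, median centring, no filter and a stricter filter on dim probes, 1 probe a gene, an intensity trend, no saturated probes, separate channels, and each array alone. In none of those with a test did a probe of the 10 genes pass at an adjusted p under 0.05. Over all tested probes 1 passed in place of 0 at offset 0, with median centring and with the stricter filter. Median centring left the tested probes with a median log2 ratio of 0.57 (array 1) and -0.37 (array 2). With it 3 of the 11 probes, in place of 5, had the same sign on both arrays. Over all tested probes that share fell too, from 45.3% to 21.8%. The downstream ACVR2B probe turned to a mean of 0.11. At offset 0 the sign was the same on both arrays for 4 of the 11 probes, without AMH. With the scanner software's signals it was the same for 5, with INHBB in place of AMH. Each array alone is a value with no test. Leaving out each array in turn, the log2 ratio ranged from -0.25 to 1.00 for INHA, -1.03 to 1.71 for INHBA, -0.076 to 0.95 for INHBB, -0.073 to 0.087 for ACVR2A, -0.55 to 0.46 for the downstream ACVR2B probe and -0.60 to 3.10 for FST. At least 2-fold probes then numbered 2 to 3 of 11, by a looser rule than the same direction on both arrays, which 0 met. The share of all tested probes on each array alone is not given here. On 1 or both arrays it was 9.51%, against 4 of the 11 probes. The test is itself paired, since each array sets 1 pubertal against 1 infant culture, and no further block was fitted. Dim spots, such as those of ACVR2A at 68.9 to 237 units above background, limit what can be seen.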
